A study of Mus musculus with 12 samples.

Results

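The genes described here encode the surface antigens by which the cells of the study were sorted: Ly6a (Sca1), Kit (KIT, also CD117), Slamf1 (CD150), Cd48 (CD48), Eng (CD105, endoglin), Itga2b (CD41) and the pair Fcgr3 and Fcgr2b, whose products CD16 and CD32 are stained together as CD16/32. The 8 genes were taken from the antigens named in the sort labels, not from any measured value, although earlier results of these data were known by then. They are 8 of the 37044 mouse genes in the data, and all 8 passed the filter on low counts that left 15656 genes for testing.

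Blood cells form from haematopoietic stem cells through precursors that progressively lose stem cell surface proteins and gain those of 1 lineage. Sca1 is a small protein tethered to the membrane of mouse stem and progenitor cells, KIT is the receptor for stem cell factor, and CD150 and CD48 belong to the SLAM receptor family, in which CD150 marks and CD48 is absent from the most primitive mouse stem cells. Endoglin is a co-receptor for TGF-beta and BMP ligands, CD41 is the alpha chain of the platelet fibrinogen receptor that early precursors also carry, and CD16 and CD32 are Fc receptors that bind IgG on myeloid cells, CD16 as an activating and CD32 (Fcgr2b) as an inhibitory receptor.

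RNA was sequenced from 12 libraries in 4 groups of 3, all from mouse cells that were cultured after sorting. MLL-ENL preGM and WT preGM are granulocyte and macrophage precursors, sorted as lineage-negative and KIT-positive cells that lacked Sca1, CD150, CD105, CD41 and CD16/32. MLL-ENL HSC and WT HSC are haematopoietic stem cells, sorted as lineage-negative cells with Sca1, KIT and CD150 but without CD48. The MLL-ENL cells came from a strain labelled Col1a1-MLL/ENL, which carries a fusion of the leukaemia gene MLL (Kmt2a) with ENL (Mllt1), and the WT cells from wild-type C57BL/6 mice. Cells of all 4 groups, WT included, were kept for 48 h in OptiMEM and 10% serum that held doxycycline (1 µg/ml), IL3 and G-CSF (5 ng/ml each) and SCF (10 to 50 ng/ml). Since every MLL-ENL library had doxycycline, the fusion and other differences between the strains cannot be told apart. The labels give neither the ages of the mice nor whether replicates were separate animals or cultures, nor whether animals were pooled. A p-value here therefore speaks of library-to-library spread alone, and that spread may be technical. The gates read protein before culture, whereas the RNA was taken after it.

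Library totals were 38.4 to 50.3 megacounts in MLL-ENL preGM, 34.7 to 44.5 in WT preGM, 19.0 to 23.4 in MLL-ENL HSC and 14.5 to 18.1 in WT HSC. Markers that were not gated separated the HSC from the preGM libraries: 10 stem cell markers summed to 26.8 to 35.6 CPM (counts per megacount) in MLL-ENL preGM, 12.9 to 13.9 in WT preGM, 480 to 539 in MLL-ENL HSC and 328 to 396 in WT HSC. These sums do not show that the cells were still preGM after culture. Granulocyte markers, given below, were far higher in both preGM groups than in HSC. Replicate 1 of MLL-ENL preGM and replicate 2 of WT preGM stood apart from their groups. In the first, the 3′-most exon held 41.1% of a gene's counts (median of 7812 genes), in the second 56.4%, and in the other 4 preGM libraries 48.4% to 51.3%. Gate gene differences between genotypes that rest on either are given with and without it, and those between cell types with their range over other settings. In bulk RNA, fewer cells of a type and less RNA per cell cannot be told apart.

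Whether MLL-ENL goes with a different RNA level of the gate antigens was asked in each cell type, with the edgeR quasi-likelihood test across all genes and a Benjamini-Hochberg adjusted p under 0.05 as the call. In preGM, Slamf1 and Itga2b rose and Ly6a and Fcgr3 fell with MLL-ENL, while Kit, Cd48, Eng and Fcgr2b were not called. That is 2 of 8 genes higher, where 3.70% of all tested genes were, and 2 of 8 lower, where 3.08% were; 6.78% of all genes were called in either direction. The libraries of MLL-ENL and WT preGM did not overlap for the same 4 genes, against 27.8% of all genes. In HSC, Cd48 was the 1 gene that fell and 0 rose, in a comparison that called 4.13% of all genes, 3.19% higher and 0.933% lower. At an unadjusted p under 0.05, 2 were higher and 1 was lower in MLL-ENL HSC, and DESeq2 called 0 higher and 1 lower. Shares over all genes are not given for these counts, so they are no result about the gate genes. The HSC libraries of both genotypes did not overlap for Ly6a, Cd48 and Eng, 3 of 8 genes, against 34.8% of all genes.

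The response in preGM differed from that in HSC for 5 of the 8 genes in a direct test of the difference (interaction, preGM response minus HSC response), which called 3.14% of all genes, 1.07% with a positive and 2.06% with a negative value. Cd48, Slamf1 and Itga2b had positive interactions and Ly6a and Fcgr3 negative ones. The median log2 change over the 8 genes was 0.73 in preGM and 0.03 in HSC, beside 0.08 and 0.02 over all tested genes.

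**Figure D1:**
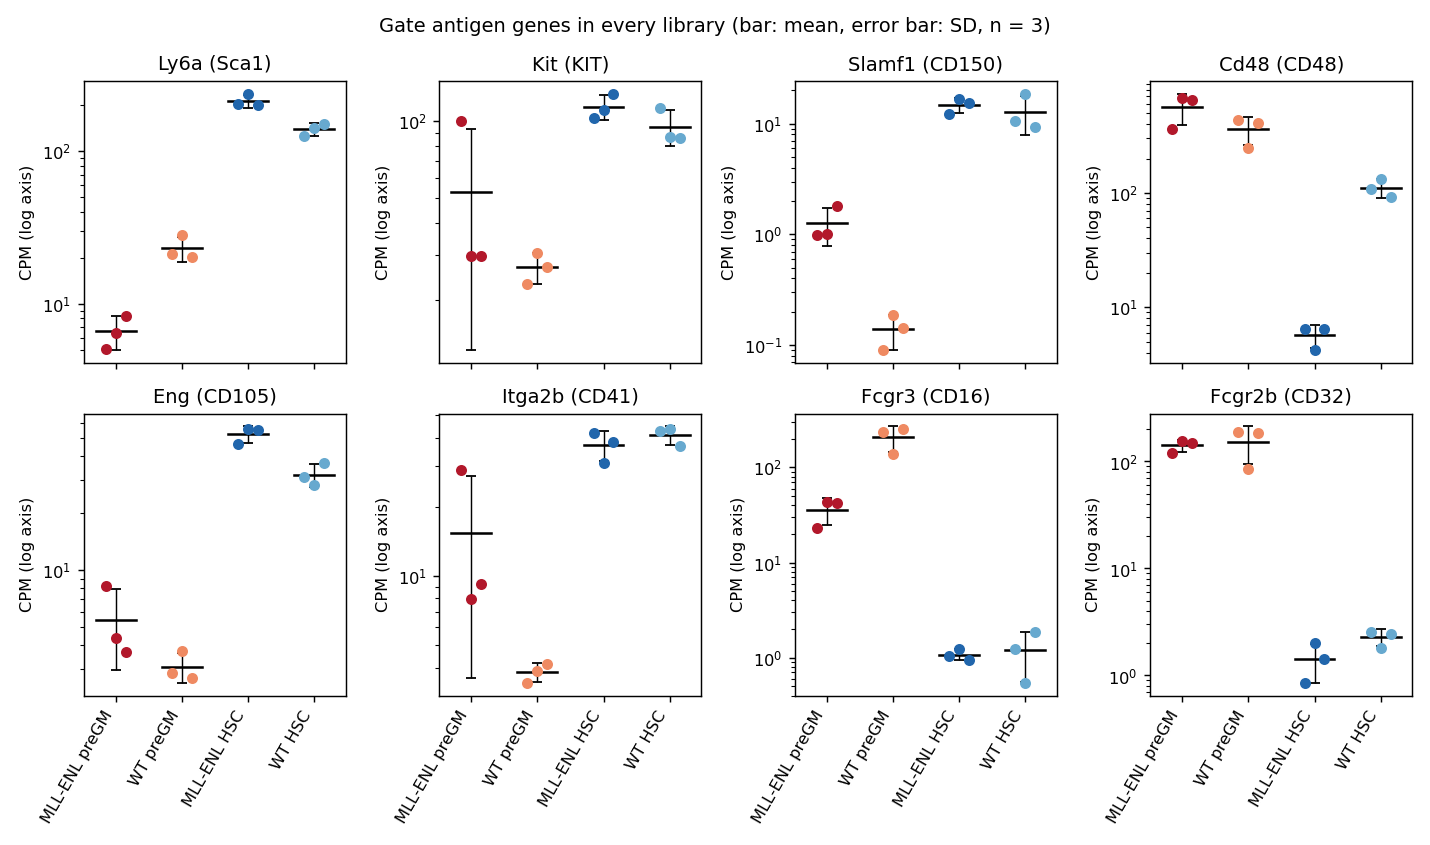
CPM of the 8 gate antigen genes (log axis) in each of the 12 libraries, by group. Points are libraries, bars are means and error bars SD (n = 3). Cd48 lies between 4.18 and 6.44 CPM in MLL-ENL HSC and above 91 CPM in every other group, and Kit and Itga2b each have 1 MLL-ENL preGM library far above the other two.

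**Figure D2:**
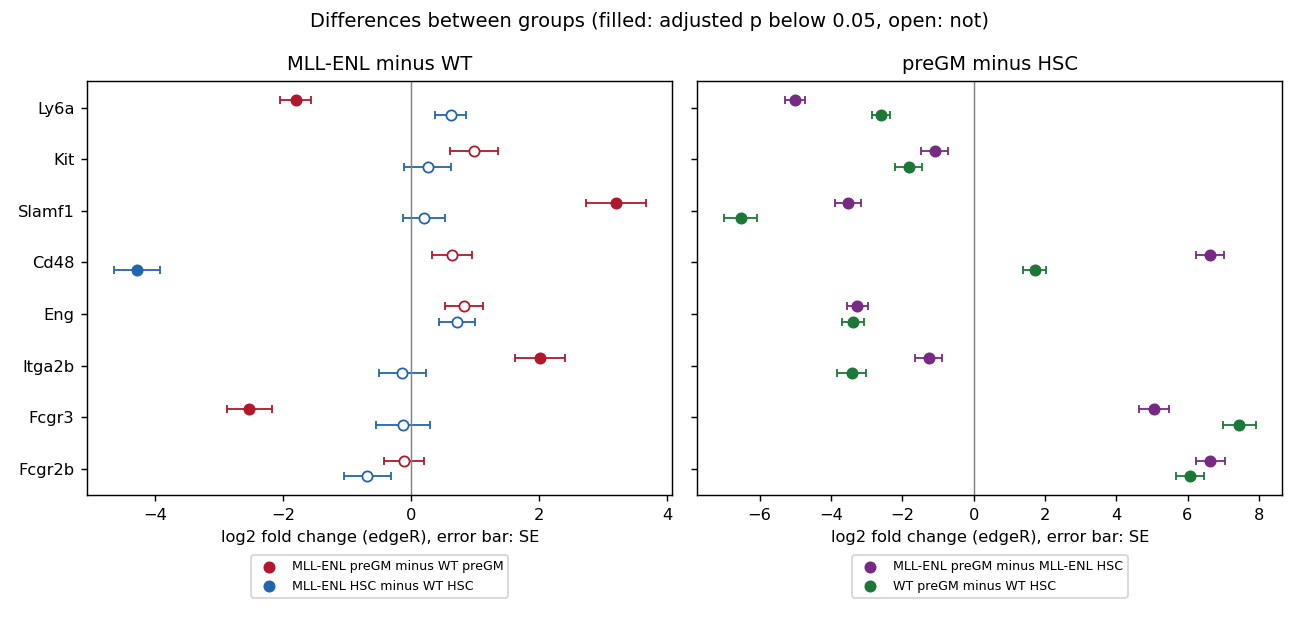
Log2 fold changes of the 8 genes with their SE, for MLL-ENL minus WT (left) and preGM minus HSC (right). Filled points passed the adjusted p threshold of 0.05 and open points did not; in the left panel 4 preGM points and 1 HSC point are filled, in the right panel all points are.

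Ly6a, the Sca1 gene (ENSMUSG00000075602, GRCm38 chromosome 15, 74994877 to 74998031, minus strand), fell in MLL-ENL preGM. It had 5.05, 6.41 and 8.34 CPM in the 3 MLL-ENL preGM libraries, against 21.01, 28.1 and 20.3 CPM in WT preGM. Every MLL-ENL library lay below every WT library, by a log2 change of -1.81 ± 0.25 (SE, adjusted p = 0.000296). The call held in all 22 other settings (log2 change -2.01 to -1.48). In HSC it had 202, 237 and 199.6 CPM in MLL-ENL HSC, against 125, 141 and 150.5 CPM in WT HSC. The HSC groups did not overlap, but the log2 change of 0.62 ± 0.24 missed the threshold (adjusted p = 0.172). It passed when only the HSC groups were fitted (adjusted p = 0.00208), without both preGM libraries that stood apart (0.0023) and with library size alone (0.0396). The interaction of -2.42 ± 0.34 passed (adjusted p = 0.00081), as it did in all 21 settings that could give one.

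Ly6a sits in a cluster of Ly6 genes with similar sequence. Of its distinct stretches of 50 bases, 19.0% also occur in a transcript of another gene, Ly6c1 and Ly6i among them. These stretches make up 57.1% of exon 1 and 26.5% of exon 2 but 3.45% of exon 3, the 3′-most exon, which holds most of the counts. Exon 3 alone had 5.57 ± 1.49 CPM in MLL-ENL preGM and 20.8 ± 3.99 CPM in WT preGM (SD, n = 3), and exons 1 and 2 together had 1.03 ± 0.170 and 2.32 ± 0.366 CPM. All 3 exons were lower in every MLL-ENL preGM library than in every WT preGM library.

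**Figure D3:**
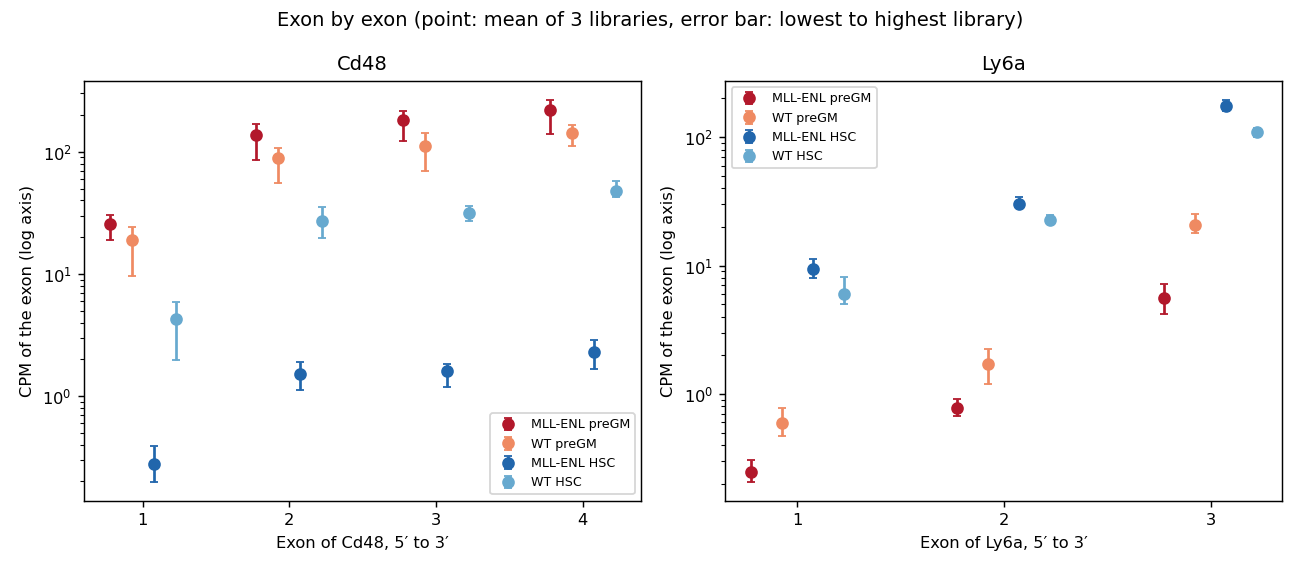
CPM of each exon (log axis) of Cd48 and Ly6a, counted from the 5′ end, by group. Points are means of 3 libraries and error bars run from the lowest to the highest library; all 4 exons of Cd48 are lowest in MLL-ENL HSC, and all 3 exons of Ly6a are lowest in MLL-ENL preGM.

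Of 12 tested Ly6 family genes, Ly6a included, 1 rose and 5 fell in MLL-ENL preGM (median log2 change -0.68, against 0.08 over all genes). Ly6c2, which encodes the Ly6C antigen of monocytes and other myeloid cells, had 40.7, 95.7 and 90.1 CPM in MLL-ENL preGM, against 833, 1177 and 749 CPM in WT preGM (log2 change -3.61 ± 0.36, adjusted p = 1.30e-05). Ly6i lies 11.4 kb from Ly6a and fell as well, with 0.844 ± 0.471 CPM in MLL-ENL preGM and 19.1 ± 11.2 CPM in WT preGM (SD, n = 3; log2 change -4.52 ± 0.63, adjusted p = 0.000354). Ly6c1, 46.0 kb away on the other side, had 0.396 ± 0.0980 CPM in MLL-ENL preGM and 3.61 ± 0.499 CPM in WT preGM (-3.18 ± 0.44, adjusted p = 0.000323). Cd59a, a complement inhibitor gene of the same family, moved the other way and rose in both cell types: to 21.2 ± 5.54 CPM in MLL-ENL preGM, against 3.30 ± 0.277 CPM in WT preGM, and to 84.3 ± 11.3 CPM in MLL-ENL HSC, against 32.5 ± 6.17 CPM in WT HSC (log2 changes 2.68 ± 0.26 and 1.38 ± 0.25, adjusted p = 1.11e-05 and 0.0047). Near-identical copies make the counts of single Ly6 genes uncertain.

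Kit, the stem cell factor receptor gene (ENSMUSG00000005672, GRCm38 chromosome 5, 75574916 to 75656722, plus strand), was selected for in both sorts and was present in all 12 libraries. It had 99.5, 29.9 and 29.7 CPM in MLL-ENL preGM, against 23.2, 30.5 and 26.9 CPM in WT preGM. Replicate 1 of MLL-ENL preGM was more than 3-fold above all other preGM libraries, which overlapped. The log2 change of 0.98 ± 0.37 did not pass (adjusted p = 0.133), and it was 0.15 (adjusted p = 0.749) without that library and 1.26 (adjusted p = 0.0444) without MLL-ENL preGM replicate 2. In HSC it had 103, 109.9 and 127 CPM with MLL-ENL and 113, 86.6 and 85.5 CPM in WT, groups that overlapped (log2 change 0.26 ± 0.37, adjusted p = 0.757).

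The excess in that 1 library lay mostly outside the last exon of Kit. Its 3′-most exon held 51.8% of the Kit counts in MLL-ENL preGM replicate 1, and 79.7% and 84.9% in replicates 2 and 3, against 67.2% to 84.1% in WT preGM, 90.1% to 91.8% in MLL-ENL HSC and 87.0% to 90.01% in WT HSC. The other 20 exons together had 47.9 CPM in replicate 1, against 6.08 and 4.47 CPM in replicates 2 and 3 and 4.27 to 10.02 CPM in WT preGM. Kit introns had 616 counts in that library and 89 counts in each of the other MLL-ENL preGM libraries. The coverage and the level moved together here, and the part of one in the other was not tested.

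**Figure D4:**
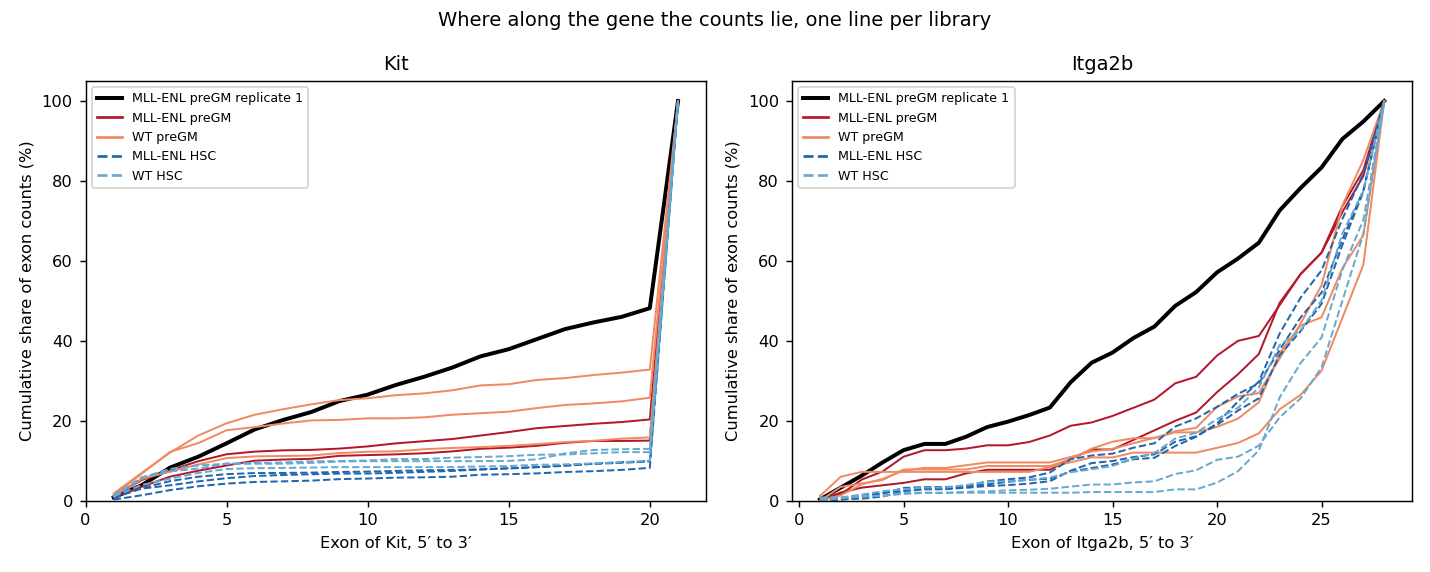
Cumulative share of exon counts (%) along the exons of Kit and Itga2b, from the 5′ to the 3′ end, 1 line per library. The black line is MLL-ENL preGM replicate 1, in which 51.8% of the Kit counts and 5.13% of the Itga2b counts fall in the last exon, the lowest shares of the 12 libraries.

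Of 18 tested genes for KIT ligand, adaptors and regulators, Kit included, 0 rose and 0 fell in MLL-ENL preGM by the edgeR test (median log2 change -0.07). At an unadjusted p under 0.05, 2 were higher and 2 lower, and DESeq2 called 0 and 0. In MLL-ENL HSC 1 rose and 1 fell. The 1 that rose was Dok1, which encodes a docking protein that restrains tyrosine kinase signalling, with 25.6 ± 3.11 CPM in MLL-ENL HSC and 7.23 ± 0.830 CPM in WT HSC (SD, n = 3; log2 change 1.82 ± 0.29, adjusted p = 0.00196). The 1 that fell was Sh2b2, an adaptor gene, with 2.05 ± 0.514 CPM in MLL-ENL HSC and 5.53 ± 0.137 CPM in WT HSC (log2 change -1.43 ± 0.32, adjusted p = 0.0179). It was not called with library size alone (adjusted p = 0.0516) or without MLL-ENL HSC replicate 2 (0.0964) or 3 (0.0589).

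Slamf1, the CD150 gene (ENSMUSG00000015316, GRCm38 chromosome 1, 171767127 to 171801184, plus strand), was higher in MLL-ENL preGM, from a gate that had excluded its product, than in WT preGM. It had 0.979, 1.01 and 1.82 CPM in MLL-ENL preGM, against 0.0897, 0.186 and 0.142 CPM in WT preGM. These correspond to 52, 31 and 66 counts in MLL-ENL preGM and 3, 4 and 5 counts in WT preGM, so the WT level lies near the 0.105 CPM that 3 counts give. The groups did not overlap and the log2 change was 3.19 ± 0.47 (adjusted p = 0.000495). It held in all 22 other settings (log2 change 2.83 to 3.56), those without MLL-ENL preGM replicate 1 and WT preGM replicate 2 included. In HSC it had 12.2, 16.7 and 15.3 CPM in MLL-ENL HSC and 10.6, 18.6 and 9.30 CPM in WT HSC. The HSC groups overlapped (log2 change 0.19 ± 0.33, adjusted p = 0.798), and the interaction of 2.999 ± 0.58 passed (adjusted p = 0.00785).

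Cd48 (ENSMUSG00000015355, GRCm38 chromosome 1, 171682009 to 171705258, plus strand), the antigen whose absence defined the HSC gate, fell in MLL-ENL HSC. In MLL-ENL HSC it had 6.40, 4.18 and 6.44 CPM, against 108, 134 and 91.5 CPM in WT HSC. All MLL-ENL HSC libraries lay below all other libraries, a log2 change of -4.29 ± 0.36 (adjusted p = 1.24e-05) that kept its call in all 22 alternative settings (log2 change -4.40 to -4.10). All 4 exons were lower in every MLL-ENL HSC library, and Cd48 introns had 0.168 ± 0.123 CPM in MLL-ENL HSC and 4.15 ± 2.49 CPM in WT HSC (SD, n = 3), so exons and introns moved together. In preGM, whose gate did not use CD48, the gene had 367, 677 and 652 CPM with MLL-ENL and 437, 246 and 408 CPM in WT. Those groups overlapped and were not called (log2 change 0.64 ± 0.31, adjusted p = 0.228), although the gene passed without both preGM libraries that stood apart (0.65, adjusted p = 0.0404). The interaction was 4.93 ± 0.47 (adjusted p = 1.88e-05).

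Cd48 and Slamf1 are neighbours, 61.9 kb apart on the same strand, and their promoters are shown because the genes sit side by side yet each was called in a different cell type. The sequences run from 250 bases before to 50 bases after the RefSeq start (GRCm38.p6, chr1:171681742-171682041 for Cd48 and chr1:171766882-171767181 for Slamf1, both on the plus strand). Capitals mark GATAA, a core of GATA factor sites, or GAGGAA, a core of PU.1 and other ETS factor sites, on either strand.
Cd48: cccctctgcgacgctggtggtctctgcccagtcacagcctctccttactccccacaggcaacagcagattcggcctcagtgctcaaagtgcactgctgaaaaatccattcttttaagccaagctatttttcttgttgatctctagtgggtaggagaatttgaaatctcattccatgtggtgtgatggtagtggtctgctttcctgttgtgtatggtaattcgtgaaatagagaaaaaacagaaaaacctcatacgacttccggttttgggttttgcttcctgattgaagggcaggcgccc
Slamf1: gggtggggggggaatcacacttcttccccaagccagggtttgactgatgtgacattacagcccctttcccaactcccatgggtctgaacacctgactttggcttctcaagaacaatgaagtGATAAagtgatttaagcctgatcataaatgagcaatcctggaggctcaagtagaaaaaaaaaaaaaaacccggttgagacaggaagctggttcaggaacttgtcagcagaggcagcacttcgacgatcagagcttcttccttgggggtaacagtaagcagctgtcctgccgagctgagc
Slamf1 holds 1 GATAA, which 25.4% of 32851 RefSeq promoters of this length hold, no GAGGAA, which 28.3% hold, and 3 matches to TTNCNNAA, a loose C/EBP core, which 40.7% hold on either strand. Cd48 holds none of these in this window, and 1 TGTGGT, a core of RUNX sites found in 16.8% of promoters.

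On the other side of Cd48, 72.3 kb away, lies Cd244a, which encodes the natural killer and progenitor receptor that binds CD48. It fell in MLL-ENL HSC with its ligand gene: it had 5.16, 5.62 and 5.02 CPM in MLL-ENL HSC, against 19.2, 19.6 and 10.4 CPM in WT HSC (log2 change -1.64 ± 0.33, adjusted p = 0.0101). That call was lost with library size alone (adjusted p = 0.0577) and without MLL-ENL HSC replicate 3 (adjusted p = 0.0511). In preGM it rose, with 19.4, 14.4 and 14.6 CPM with MLL-ENL and 7.32, 3.31 and 7.03 CPM in WT (1.45 ± 0.32, adjusted p = 0.0115). Neither pair of groups overlapped, and the interaction was 3.09 ± 0.46 (adjusted p = 0.0012). Of 8 tested SLAM receptor and adaptor genes, the gate genes included, 2 rose and 1 fell in preGM and 1 rose and 2 fell in HSC. Slamf9, the 1 that rose in HSC, is a low gene, with 0.783 ± 0.685 CPM in MLL-ENL HSC and 0.0205 ± 0.0356 CPM in WT HSC, and lost its call in 12 of the other settings. The 1 that fell in MLL-ENL preGM was Sh2d1b1, an adaptor of SLAM receptors, with 2.33 ± 1.58 CPM in MLL-ENL preGM and 13.8 ± 1.39 CPM in WT preGM (SD, n = 3; log2 change -2.57 ± 0.49, adjusted p = 0.00529).

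Eng, the endoglin gene (ENSMUSG00000026814, GRCm38 chromosome 2, 32646595 to 32682669, plus strand), was not called with MLL-ENL in either cell type. It had 8.25, 4.36 and 3.67 CPM in MLL-ENL preGM, against 2.87, 3.73 and 2.68 CPM in WT preGM. Replicate 1 was again the highest MLL-ENL preGM library, and the groups overlapped (log2 change 0.82 ± 0.29, adjusted p = 0.106; 0.39 without that library, adjusted p = 0.408). With library size alone the preGM difference passed (1.22, adjusted p = 0.0461). In HSC it had 46.4, 55.7 and 54.8 CPM with MLL-ENL and 31.0, 28.1 and 36.6 CPM in WT, groups that did not overlap. The log2 change of 0.71 ± 0.28 missed the threshold (adjusted p = 0.175), but passed when only the HSC groups were fitted (adjusted p = 0.00568), without MLL-ENL preGM replicate 1 (0.0295) and without both preGM libraries that stood apart (0.00367). The interaction was 0.11 ± 0.40 (adjusted p = 0.936), so no difference between the responses was detected.

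Among 21 tested genes of endoglin and its TGF-beta or BMP receptor pathway, Eng included, 3 rose and 0 fell in MLL-ENL HSC (median log2 change 0.18, against 0.02 over all genes), and at an unadjusted p under 0.05 none was lower. In MLL-ENL preGM 3 rose and 3 fell (median 0.10, against 0.08 over all genes). Id2 and Id3, inhibitor genes of helix-loop-helix factors that BMP signalling induces, went in opposite directions in the cell types. Id2 had 16.8 ± 5.73 CPM in MLL-ENL preGM and 79.5 ± 10.5 CPM in WT preGM, where it fell (log2 change -2.24 ± 0.29, adjusted p = 0.000171), and 74.7 ± 7.52 CPM in MLL-ENL HSC and 23.9 ± 6.19 CPM in WT HSC, where it rose (1.65 ± 0.28, adjusted p = 0.00362; SD, n = 3 each). Id3 rose in MLL-ENL HSC, with 109 ± 20.5 CPM against 18.3 ± 0.569 CPM in WT HSC (2.57 ± 0.27, adjusted p = 8.09e-05). Its mean was lower in MLL-ENL preGM, with 33.8 ± 9.57 CPM against 68.1 ± 10.9 CPM in WT preGM (log2 change -1.01). The third gene that rose in HSC, Acvrl1, which encodes a receptor for BMP ligands, had 0.877 ± 0.278 CPM in MLL-ENL HSC and 0.0186 ± 0.0323 CPM in WT HSC, near 0. Smad3, a TGF-beta signal transducer gene, rose in MLL-ENL preGM to 8.62 ± 1.62 CPM, against 4.27 ± 0.385 CPM in WT preGM (1.02 ± 0.23, adjusted p = 0.0125). Bmpr1a, a BMP receptor gene, rose there to 1.45 ± 0.361 CPM, against 0.101 ± 0.0739 CPM in WT preGM (3.92 ± 0.90, adjusted p = 0.0138). Id1, a relative of Id2, fell to 47.8 ± 10.7 CPM in MLL-ENL preGM, against 93.1 ± 13.1 CPM in WT preGM (-0.96 ± 0.23, adjusted p = 0.0186). The calls of Smad3, Bmpr1a and Id1 were each lost in 3 other settings, for Bmpr1a including the one without MLL-ENL preGM replicate 1 (adjusted p = 0.0524). Of 12 tested genes within 100 kb of Eng, 2 rose in preGM and 1 in HSC. Ak1, an adenylate kinase gene, was the 1 in HSC, with a log2 change of 1.66 ± 0.21 (adjusted p = 0.000395) and mean levels of 68.7 CPM in MLL-ENL HSC and 21.7 CPM in WT HSC. It was higher in MLL-ENL preGM too (0.93 ± 0.21, adjusted p = 0.013), which did not pass when WT preGM replicate 3 was left out (adjusted p = 0.053) or only the preGM groups were fitted (0.0979).

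Itga2b, the CD41 gene (ENSMUSG00000034664, GRCm38 chromosome 11, 102453297 to 102470122, minus strand), rose in MLL-ENL preGM, from a gate that had excluded CD41. It had 29.0, 7.97 and 9.25 CPM in MLL-ENL preGM, against 3.44, 3.87 and 4.16 CPM in WT preGM. All 3 MLL-ENL libraries lay above all WT libraries, with replicate 1 more than 3-fold above the other two. The log2 change was 2.02 ± 0.39 (adjusted p = 0.00446), and 1.17 (adjusted p = 0.00315) without that library. Of its 28 exons, 26 had at least 20 counts over the preGM libraries, and all 26 had a higher mean with MLL-ENL, 15 of them in every library. The 3′-most exon held 5.13% of the Itga2b counts in replicate 1, 18.8% and 17.3% in replicates 2 and 3 and 14.8% to 41.0% in WT preGM. With that exon alone counted, a setting added after the difference in coverage was seen, the preGM change was 0.49 and was not called (adjusted p = 0.408).

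In HSC, Itga2b had 42.0, 31.1 and 38.1 CPM with MLL-ENL and 42.6, 43.7 and 36.6 CPM in WT, which overlapped (log2 change -0.14 ± 0.37, adjusted p = 0.873). The interaction of 2.16 ± 0.53 passed narrowly (adjusted p = 0.0353) and was lost in 12 of 21 other settings, among them leaving out any 1 WT HSC, MLL-ENL HSC or WT preGM library (adjusted p = 0.0527 to 0.11). Of 14 tested genes of platelet integrins and glycoproteins, Itga2b included, 2 rose and 2 fell in MLL-ENL preGM (median 0.58, against 0.08 over all genes). Selp, the P-selectin gene, rose as well, with 11.2, 4.98 and 9.77 CPM in MLL-ENL preGM, against 0.956, 1.68 and 1.51 CPM in WT preGM (2.66 ± 0.31, adjusted p = 7.71e-05). The 2 that fell were Gp1bb, a chain of the platelet von Willebrand factor receptor, with 0.433 ± 0.253 CPM in MLL-ENL preGM and 2.07 ± 1.01 CPM in WT preGM (-2.26 ± 0.50, adjusted p = 0.0112), and Rasgrp2, which encodes an activator of Rap1 in platelets (-1.12 ± 0.27, adjusted p = 0.019). Without WT preGM replicate 2, neither Gp1bb (adjusted p = 0.0566) nor Rasgrp2 (0.0577) passed. Gp1bb was not called without both preGM libraries that stood apart (-1.48, adjusted p = 0.109) and changed sign with unshared exons or the 3′-most exon alone. Rasgrp2 was not called without MLL-ENL preGM replicate 1 (adjusted p = 0.0566) or with only the preGM groups (0.111), among 5 such settings, and changed sign with the longest transcript alone. In MLL-ENL HSC 2 rose, Clec1b and Vwf, the von Willebrand factor gene. Clec1b had 1.55 ± 0.694 CPM in MLL-ENL HSC and 0.0616 ± 0.107 CPM in WT HSC, and lost its call without replicate 1 or 2 of either HSC group (adjusted p = 0.0614 to 0.0849). Vwf lost its call in 13 of the other settings. Megakaryocyte and platelet markers, 9 genes, summed to 19.0 to 37.6 CPM in MLL-ENL preGM and 24.8 to 96.8 CPM in WT preGM, which overlapped. In HSC they summed to 286 to 308 CPM with MLL-ENL and 651 to 769 CPM in WT, which did not overlap. The edgeR test called 1 higher and 2 lower with MLL-ENL in each cell type. The gap between the HSC sums lay mostly in Pf4, with 47.0 ± 19.0 CPM in MLL-ENL HSC and 481 ± 75.0 CPM in WT HSC. Other markers went both ways in HSC: Vwf had a higher mean with MLL-ENL (85.5 against 42.4 CPM) and Treml1 a lower one (2.98 against 9.23 CPM). None of the 9 was at 0 in a group, and their part in these results was not tested.

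Fcgr3, the CD16 gene (ENSMUSG00000059498, GRCm38 chromosome 1, 171051174 to 171064935, minus strand), fell in MLL-ENL preGM, while the nearby CD32 gene Fcgr2b (ENSMUSG00000026656, chromosome 1, 170958617 to 170976547, minus strand) did not pass. Fcgr3 had 22.8, 42.9 and 42.5 CPM in MLL-ENL preGM, against 237, 137 and 251 CPM in WT preGM. The groups were at least 3-fold apart and did not overlap, with a log2 change of -2.53 ± 0.35 (adjusted p = 0.000338) that kept its call in all 22 other settings. Fcgr2b had 119, 155 and 149 CPM in MLL-ENL preGM, against 189, 84.8 and 186 CPM in WT preGM. These overlapped, with WT preGM replicate 2 the lowest (log2 change -0.12 ± 0.31, adjusted p = 0.844). Both genes were low in HSC. Fcgr3 had 1.05, 1.23 and 0.955 CPM in MLL-ENL HSC and 1.23, 0.544 and 1.85 CPM in WT HSC, from 12 to 33 counts a library. Fcgr2b had 0.855, 1.99 and 1.42 CPM in MLL-ENL HSC and 2.57, 1.81 and 2.46 CPM in WT HSC. Neither was called there (log2 change -0.13 ± 0.42 and -0.69 ± 0.37, adjusted p = 0.903 and 0.337).

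Per kilobase of exon, the ratio of Fcgr3 to Fcgr2b was 0.424, 0.614 and 0.630 in MLL-ENL preGM, against 2.77, 3.57 and 2.98 in WT preGM. The mean log2 ratios were -0.87 ± 0.32 in MLL-ENL preGM and 1.63 ± 0.19 in WT preGM (SD, n = 3), a difference of -2.50 with an exact permutation p of 0.1, the smallest that 3 against 3 libraries can give (adjusted p = 0.133 over 4 comparisons). Per kilobase, the activating receptor gene lay below the inhibitory one in all 3 MLL-ENL preGM libraries and above it in all 3 WT preGM libraries. The interaction passed for Fcgr3 (-2.40 ± 0.54, adjusted p = 0.0213), but not when 1 library was left out among replicates 1 and 2 of MLL-ENL HSC or WT HSC and replicates 1 and 3 of WT preGM (adjusted p = 0.0518 to 0.0727). For Fcgr2b it did not pass (0.57 ± 0.48, adjusted p = 0.616).

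**Figure D5:**
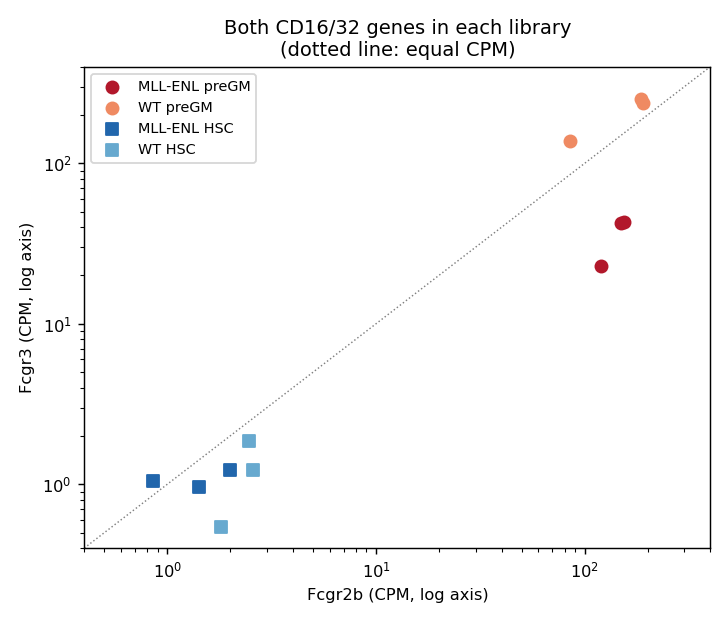
CPM of Fcgr3 against that of Fcgr2b (both log axes), 1 point per library, circles for preGM and squares for HSC. WT preGM lies above the dotted line of equal CPM, MLL-ENL preGM below it at similar Fcgr2b, and all 6 HSC libraries lie under 3 CPM for both genes.

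The genes are close relatives, 74.6 kb apart. Stretches of 50 bases shared with Fcgr2b make up 9.58% of Fcgr3, all in exons 5 and 6 (19.9% and 34.9% of those exons), and none lies in the last exon. That exon alone had 21.7 ± 7.49 CPM in MLL-ENL preGM and 138 ± 23.2 CPM in WT preGM (SD, n = 3). All 5 exons of Fcgr3 with at least 20 counts were lower in every MLL-ENL preGM library. The first 2 deposited exons of each gene had almost no counts, and the RefSeq start of each lies in exon 3. Their promoters (GRCm38.p6, minus strand, chr1:171059354-171059653 for Fcgr3 and chr1:170976022-170976321 for Fcgr2b) are shown because 1 of the paired genes was called in preGM and the other was not. Capitals again mark GATAA or GAGGAA on either strand (read as TTCCTC on the strand printed).
Fcgr3: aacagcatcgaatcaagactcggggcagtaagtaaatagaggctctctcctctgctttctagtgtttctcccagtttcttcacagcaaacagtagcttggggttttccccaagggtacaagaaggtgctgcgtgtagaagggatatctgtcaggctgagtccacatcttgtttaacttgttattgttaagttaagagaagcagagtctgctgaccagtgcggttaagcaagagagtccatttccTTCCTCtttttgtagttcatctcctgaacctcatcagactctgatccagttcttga
Fcgr2b: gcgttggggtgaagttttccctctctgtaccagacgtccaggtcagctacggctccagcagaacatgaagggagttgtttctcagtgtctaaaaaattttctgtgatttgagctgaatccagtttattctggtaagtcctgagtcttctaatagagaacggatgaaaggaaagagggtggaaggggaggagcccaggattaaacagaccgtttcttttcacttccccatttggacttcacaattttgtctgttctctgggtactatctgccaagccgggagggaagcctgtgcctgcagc
Fcgr3 holds 1 GAGGAA, as 28.3% of promoters do, and Fcgr2b holds neither motif in this window. Fcgr3 also holds 2 matches to TTNCNNAA, and Fcgr2b none.

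Of 11 tested Fc receptor and signalling chain genes, both gate genes included, 0 rose and 4 fell in MLL-ENL preGM (median log2 change -0.23), with 0 higher at an unadjusted p under 0.05 and 0 higher by DESeq2. Fcer1g, the signalling chain that CD16 needs at the surface, had 146, 445 and 403 CPM in MLL-ENL preGM, against 878, 2027 and 724 CPM in WT preGM (-1.87 ± 0.42, adjusted p = 0.0114). The call ended when WT preGM replicate 2 was left out (-1.28, adjusted p = 0.054) or only the preGM groups were fitted (0.103). Fcgrt, the neonatal Fc receptor gene, and Fcgr1, the high-affinity IgG receptor gene, fell as well (-1.33 ± 0.36 and -2.17 ± 0.59, adjusted p = 0.0351 and 0.0367), and each lost its call in 10 of the other settings. In HSC the 1 called gene of the list was Fcer1a, the alpha chain of the IgE receptor, which fell to 0.238 ± 0.0896 CPM in MLL-ENL HSC, against 1.87 ± 0.723 CPM in WT HSC (-2.95 ± 0.40, adjusted p = 0.000788), and was not called with the 3′-most exon alone (adjusted p = 0.0941).

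Markers of several cell types also differed between the genotypes. Granulocyte markers, 9 genes, summed to 10861 to 15296 CPM in MLL-ENL preGM and 26435 to 29200 CPM in WT preGM, with 0 of 9 higher and 8 lower by the edgeR test. Mast cell and basophil markers, 10 genes of which 9 were tested, summed to 305 to 350 CPM in MLL-ENL preGM and 1620 to 2576 CPM in WT preGM, with 0 higher and 5 lower. Tpsb2, a mast cell tryptase gene, had no counts in MLL-ENL preGM, but in WT preGM it had only 0.0855 ± 0.0470 CPM. That is below the 0.105 CPM that 3 counts give there. Monocyte and macrophage markers, 8 of 9 tested, summed to 421 to 507 CPM in MLL-ENL preGM and 707 to 942 CPM in WT preGM, with 0 higher and 3 lower. By mean, Mpo, Hdc and Ccr2 went against the sums of their lists. They had 7961, 68.0 and 191 CPM in MLL-ENL preGM, against 5257, 30.0 and 91.8 CPM in WT preGM. Stem cell markers, whose sums are given above, had 6 of 10 higher and 0 lower in MLL-ENL preGM, where Slamf1 and Itga2b rose but Ly6a fell. In MLL-ENL HSC 4 of 10 were higher and 0 lower. Erythroid markers summed to 197 to 255 CPM in MLL-ENL preGM and 258 to 296 CPM in WT preGM, and 2 of 9 fell. Beside the fall of Cd48 in HSC, erythroid markers summed to 41.7 to 56.0 CPM in MLL-ENL HSC and 135 to 158 CPM in WT HSC, and 2 of 9 fell. Lymphoid markers summed there to 0.142 to 0.602 CPM in MLL-ENL HSC and 2.54 to 4.25 CPM in WT HSC, with the 1 tested gene lower. Stromal and endothelial markers summed to 31.8 to 33.1 CPM in MLL-ENL HSC and 16.2 to 18.6 CPM in WT HSC, with 2 of 4 tested genes higher. The highest gene of this list over all libraries was Pecam1, the CD31 gene, and Pdgfra had no counts in either HSC group. Lymphoid markers summed to at most 5.53 CPM in any library, with Cd3e and Cd3g at 0 throughout. Stromal and endothelial markers reached 112.6 CPM in 1 MLL-ENL preGM library and at most 34.2 CPM in WT preGM, with Col3a1 and Cxcl12 at 0 in both. Whether these sums reflect such cells, and what part they have in the results for the gate genes, was not tested.

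The other comparison the design gives is preGM against HSC. Sca1 and CD150 were gated in opposite directions in the sorts, so for Ly6a and Slamf1 it checks the sort and is no finding. The preGM sort also excluded CD105 and CD41 and the HSC sort CD48, so lower Eng and Itga2b in preGM and higher Cd48 in preGM run in the direction that was selected. With MLL-ENL all 8 genes were called, 3 higher and 5 lower in preGM, where 41.6% of all genes were called (20.4% higher and 21.2% lower), and all 8 were without overlap, against 54.8% of all genes. In WT cells all 8 were called in the same directions, where 38.5% of all genes were called (18.4% higher and 20.1% lower) and 48.4% did not overlap. These 2 comparisons and those between genotypes share libraries.

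The 5 genes lower in preGM were Ly6a, Slamf1, Eng, Kit and Itga2b. With MLL-ENL the preGM minus HSC log2 difference was -5.01 ± 0.28 for Ly6a, -3.53 ± 0.37 for Slamf1 and -3.26 ± 0.30 for Eng (adjusted p = 3.09e-06 or less). In WT cells these were -2.59 ± 0.25, -6.53 ± 0.47 and -3.37 ± 0.31 (adjusted p = 1.09e-06 or less). Kit, required in both gates, was lower in preGM with MLL-ENL (-1.10 ± 0.37, adjusted p = 0.028) and in WT cells (-1.82 ± 0.38, adjusted p = 0.00155). The MLL-ENL call was lost without any 1 MLL-ENL HSC library, without MLL-ENL preGM replicate 2 or 3 (adjusted p = 0.052 to 0.121), and with only the 2 groups fitted (0.0717). The call held without MLL-ENL preGM replicate 1, the highest of its group. Over all 22 other settings the Kit difference ran from -1.92 to -0.81. Itga2b differed by -1.26 ± 0.37 with MLL-ENL (adjusted p = 0.0133) and by -3.42 ± 0.41 in WT cells (adjusted p = 9.27e-06), the MLL-ENL call lost without MLL-ENL preGM replicate 2 or 3 (adjusted p = 0.0535 and 0.0627). Here too the call held without replicate 1, the highest of that group. The Itga2b difference ran from -2.22 to -0.95 over all 22 other settings.

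The 3 genes higher in preGM were Cd48, Fcgr3 and Fcgr2b. Cd48 differed by 6.64 ± 0.40 with MLL-ENL (adjusted p = 1.61e-08) and by 1.71 ± 0.32 in WT cells (adjusted p = 0.000596). Fcgr3 differed by 5.06 ± 0.41 with MLL-ENL and 7.46 ± 0.46 in WT cells, and Fcgr2b by 6.64 ± 0.41 with MLL-ENL and 6.07 ± 0.40 in WT cells (adjusted p = 2.44e-07 or less). Both preGM groups had been sorted without CD16/32 protein.

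Placed in order of mean level, the groups ranked alike for Kit, Slamf1 and Eng, and alike for Fcgr3 and Fcgr2b. Ly6a was highest in MLL-ENL HSC, then WT HSC, WT preGM and MLL-ENL preGM, with no overlap between neighbours. Kit was highest in both HSC groups, which overlapped, then MLL-ENL preGM and WT preGM, which also overlapped, and replicate 1 of MLL-ENL preGM lay within the range of WT HSC. Slamf1 was highest in both HSC groups, which overlapped, then MLL-ENL preGM and WT preGM, which did not. Eng was highest in MLL-ENL HSC, then WT HSC, which did not overlap, and lowest in both preGM groups, which did. Itga2b was highest in both HSC groups, which overlapped, then MLL-ENL preGM and WT preGM, which did not. Cd48 was highest in both preGM groups, which overlapped, then WT HSC and last MLL-ENL HSC. Fcgr3 was highest in WT preGM, then MLL-ENL preGM, then both HSC groups, which overlapped, and for Fcgr2b each genotype pair overlapped.

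Levels of different genes were compared per kilobase of exon. Counts leaned to the 3′ end, with 87.0% to 91.8% of Kit counts in its last exon in HSC, so dividing by the whole exon length places short genes such as Ly6a (819 bases) and Cd48 (1189 bases) higher against long ones such as Kit (5831 bases). On that scale Ly6a had the highest level of the gate genes in HSC, with 260.0 ± 25.3 CPM per kb in MLL-ENL HSC and 169.7 ± 15.5 in WT HSC (SD, n = 3). In WT HSC Cd48 came next with 93.5 ± 17.8 CPM per kb, ahead of Kit with 16.3 ± 2.64, while in MLL-ENL HSC Kit with 19.5 ± 2.17 and Eng with 13.5 ± 1.34 stood above Cd48 with 4.77 ± 1.09. Without division by length, Cd48 and Kit in WT HSC averaged 111 ± 21.2 and 95.0 ± 15.4 CPM. Per kilobase, Cd48 led in preGM, with 475 ± 145 CPM per kb in MLL-ENL preGM and 306 ± 86.6 in WT preGM. Slamf1 was the lowest gate RNA in both preGM groups, with 0.373 ± 0.141 CPM per kb in MLL-ENL preGM and 0.0410 ± 0.0142 in WT preGM.

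Of 19 tested stem and progenitor surface genes that no gate used, 7 rose and 2 fell in MLL-ENL preGM (median log2 change 0.65, against 0.08 over all genes), and 1 rose and 2 fell in MLL-ENL HSC (median 0.11, against 0.02). Cd34, the sialomucin of progenitors, had 343, 178 and 206 CPM in MLL-ENL preGM, against 37.0, 36.3 and 51.0 CPM in WT preGM (2.55 ± 0.29, adjusted p = 5.05e-05). Cd27, a TNF receptor family gene of stem and progenitor cells, had 63.6, 113 and 101 CPM in MLL-ENL preGM, against 11.2, 6.71 and 10.97 CPM in WT preGM (3.26 ± 0.29, adjusted p = 3.30e-06). Both were several-fold higher in each of the 3 MLL-ENL preGM libraries. Procr, the protein C receptor gene, rose in MLL-ENL HSC to 53.8 ± 12.7 CPM, against 16.7 ± 1.94 CPM in WT HSC (1.68 ± 0.26, adjusted p = 0.0016), and Cxcr4, the chemokine receptor that holds cells in marrow, fell in both cell types (-1.96 ± 0.27 in preGM and -2.11 ± 0.27 in HSC, adjusted p = 0.000291 and 0.000512). Of 16 genes of the lineage cocktail and mature lineages 6 were tested, of which 1, Ly6c2, fell in preGM and 1, the CD11b gene Itgam, rose in HSC (1.66 ± 0.37, adjusted p = 0.0189). The Itgam call was lost without replicate 2 or 3 of MLL-ENL HSC, or replicate 1 or 2 of WT HSC (adjusted p = 0.059 to 0.0757).

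The genes most like each gate gene over the 12 libraries, by Pearson correlation of log2 CPM, are given as a description. For Ly6a they were Fam131a (0.99), Nfatc2 (0.99) and Myof (0.99), for Slamf1 Ppp1r13b (0.99) and Emcn (0.99), and for Eng Tspan13 (0.99), Pik3ip1 (0.99) and Zbtb20 (0.99). Cd48 was nearest to Set (0.98), Smarce1 (0.98) and Nfyb (0.97), Kit to Slc25a36 (0.98), Eef2k (0.98) and Zfp62 (0.98), and Itga2b to Adgrg1 (0.99), Kcnk5 (0.99) and Maged1 (0.98). Fcgr3 was nearest to AB124611 (0.99), Cldn15 (0.99) and Fcgr4 (0.99), another Fc receptor gene, and Fcgr2b to BC035044 (1.00), Cyp11a1 (0.99) and Mrgpra2b (0.99). The 12 points fall into 4 groups, so these values chiefly reflect the group means.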

How the data were processed

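Values for 12 libraries (4 groups of 3) were read from the deposited files, which list exons, introns and transcripts with a raw read count and an RPKM value, per the file headers. The counts were made by the authors and not normalized; the RPKM values, scaled by the authors for length and library size, were not used. TopHat2 2.0.8, Bowtie2 2.1.0, HTSeq and edgeR are named, per the submitters' processing notes; a genome build is not given in these sources. Files held 93615 transcripts, of which 89664 (95.8%) matched GENCODE M21 on GRCm38 by identifier, and 77052 of these (85.9%) had identical exon coordinates, so coordinates are given on GRCm38; 1592 transcripts were left out. Gene counts are sums over the largest set of non-overlapping exons of a gene. The sources do not state that counting used strand, so overlapping and antisense genes cannot be told apart.

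Genes were tested with edgeR 4.0.16 (quasi-likelihood, TMM scaling, robust, all 12 libraries, filterByExpr with minimum count 10 and minimum total 15) in R 4.3.3, two-sided, adjusted over 15656 genes; SE is the absolute log2 change over the square root of F. The fit was tested on simulated counts, drawn with the same spread for every gene and library (coefficient of variation 0.32). Of 100 genes changed by 1 log2 unit, it called 12 for MLL-ENL in HSC, 10 in preGM and 1 for the interaction. Of 100 changed by 2 log2 units, it called 79, 91 and 38. A gene that was not called may therefore still have changed. The real libraries differed in spread, most where a preGM library that stood apart was involved, so real recovery may differ. CPM are after TMM scaling, and precision covers counting error and the spread of 3 libraries. The 8 genes and all lists were chosen with earlier results of these data known. Genes are named as the 8 gate genes, up to 4 called genes of each list, marker genes, called neighbours within 100 kb and the 3 most correlated genes with a mean of at least 1 CPM; genes whose call depends on many settings are given by count. A correlated gene of Slamf1 is not reported here. Promoters are those of RefSeq (GRCm38.p6; 7 of 8 genes matched, Ly6a was not). Alternatives were another scaling (RLE or library size), no filter, DESeq2 1.42.0, fewer groups, a replicate block, other exon sets and leaving out libraries.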

Additional observations from a re-analysis of the deposited data

Results flagged for a closer look

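Each gene given here stands out because its response to MLL-ENL in preGM differed from its response in HSC in a direct test of the difference (interaction in the edgeR quasi-likelihood fit, Benjamini-Hochberg adjusted p under 0.05). Values are log2 and run as preGM response minus HSC response. No explanation was tested for any of them. Groups of 3 libraries are too small to ask whether a single library stands out by a gap test.

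Among the gate genes, Cd48 had an interaction of 4.93 (0.64 in preGM and -4.29 in HSC), Slamf1 of 2.999 (3.19 and 0.19), Itga2b of 2.16 (2.02 and -0.14), Ly6a of -2.42 (-1.81 and 0.62) and Fcgr3 of -2.40 (-2.53 and -0.13). For Cd48 the HSC response alone was called, and for the other 4 genes the preGM response alone.

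Of the SLAM, stem and progenitor surface genes, Cd27 had an interaction of 3.51, Cd34 of 3.20, Flt3 of 3.18, Cd244a of 3.09 and Alcam of -2.60. Flt3, a cytokine receptor gene, was called in HSC, where it had 4.37 ± 1.17 CPM with MLL-ENL and 14.4 ± 1.28 CPM in WT (SD, n = 3; log2 change -1.72, adjusted p = 0.00498). Alcam, an adhesion molecule gene, fell in preGM, with 1.71 ± 0.268 CPM in MLL-ENL preGM and 7.22 ± 0.894 CPM in WT preGM (log2 change -2.07, adjusted p = 0.000171).

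In the endoglin list the inhibitor genes Id2, Id3 and Id1 had interactions of -3.89, -3.58 and -1.51, and Acvrl1, a receptor that binds BMP9, had -6.59. In the KIT list Dok1 had -2.16. Of the Ly6 genes, Ly6i had -8.01, Ly6c2 had -3.25 and Ly6c1 had -3.14. Fcer1a had 2.82 and Fcgrt, the neonatal Fc receptor gene, -2.45. Among platelet genes Clec1b, a platelet C-type lectin receptor gene, had -6.31 and Selp 1.86. Fam102a, a neighbour of Eng, had 1.61.

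The values of Acvrl1, Clec1b and Ly6i rest on WT HSC levels near 0 and depend on the prior count of the fit. The means of Acvrl1 were 0.513 CPM in MLL-ENL preGM, 1.25 in WT preGM, 0.877 in MLL-ENL HSC and 0.0186 in WT HSC. Leaving out single libraries ended the call for Fam102a in 6 settings, for Selp in 4, for Clec1b in 3 and for Id1 in 2, and counting the 3′-most exon alone ended it for Selp, Fcer1a and Ly6c1.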

How the results depend on the processing

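For the 8 gate genes, 872 values over 40 results were recomputed under other settings: 823 kept their direction and side of the threshold, 27 lost the call, 9 gained one and 13 changed sign. For list and neighbour genes, 2306 values over 106 results gave 2185, 117, 0 and 4.

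The gate genes called in HSC numbered 1, and 2 with library size alone, 3 with only the HSC groups fitted, 3 without both preGM libraries that stood apart, and 1 to 2 with single libraries left out. The genes with a called interaction numbered 5, and 3 to 5 with single libraries left out. In the other 3 comparisons the number of gate genes called stayed within 1.5 times. Over all genes, calls over the settings ran from 312 to 3361 in HSC (646 in the fit) and from 298 to 1927 for the interaction (491). The share of all genes called in each setting is not given, so these counts are no result about the gate genes.

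None of the values that changed sign among the gate genes was called. Of the log2 changes in HSC, Itga2b became 0.046 with library size alone. Fcgr3 became 0.068 with library size alone and 0.0026 with the 3′-most exon only, and ran from -0.50 to 0.32 with single libraries left out, the highest without WT HSC replicate 3. Fcgr2b in preGM became 0.13 with library size alone, 0.12 with the longest transcript, and ran from -0.41 to 0.058 with single libraries left out, positive without WT preGM replicate 1 (0.058) or 3 (0.041). The interaction of Kit ran from -0.11 (without MLL-ENL preGM replicate 1) to 1.01 with single libraries left out, and was -0.0067 without both preGM libraries that stood apart. That of Eng ran from -0.33 (without MLL-ENL preGM replicate 1) to 0.33, was -0.029 without WT HSC replicate 3, and -0.18 without both preGM libraries that stood apart. Gp1bb in preGM became 0.021 with unshared exons and 0.048 with the 3′-most exon only, Rasgrp2 in preGM 0.017 with the longest transcript, and Ly6c1 in MLL-ENL preGM minus MLL-ENL HSC 0.56 with the 3′-most exon only; in these settings the change was not called. The cause was not tested.

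No pairing of the libraries by replicate number was detected, though the labels do not say whether there was one. Correlations of same-numbered deviations ran from -0.105 to 0.101 over 18 pairs, and 4 of 36 best matches shared the number. With a replicate block the gate genes called were 1 in HSC, 4 in preGM, 4 for the interaction, 8 in WT preGM minus WT HSC and 8 in MLL-ENL preGM minus MLL-ENL HSC. The share of all genes called with that block is not given, so these counts only show how the gate gene calls depend on it.

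Over all genes, calls ran from 312 to 3361 in HSC, where the fit called 646, from 564 to 1701 in preGM (1061), and from 298 to 1927 for the interaction (491). Library size alone moved the median gene by 0.32 in preGM, 0.19 in HSC, 0.13 for the interaction, -0.56 for MLL-ENL preGM minus MLL-ENL HSC and -0.70 for WT preGM minus WT HSC. Low counts limit Slamf1 in WT preGM and both Fc receptor genes in HSC.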
